A study of Mus musculus with 2 samples.

Results

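This account covers 10 genes of neutrophil granules, of calprotectin and of the mature neutrophil, chosen by gene symbol from the 38972 gene rows of the deposited table, where each of the 10 symbols had 1 row. S100a8 and S100a9 encode the subunits of calprotectin. Mpo and Elane belong to the primary granules of early precursors, Ngp, Camp, Ltf and Lcn2 to the specific granules that form later, and Retnlg and Csf3r to mature cells. RNA came from cells isolated as fibroblasts from mouse lungs of the C57Bl/6 strain, with 1 library per genotype. The control library came from bleomycin-treated Foxf1fl/fl mice, which carry the floxed allele alone. The other came from αSMA-Cre-ERT2/Foxf1fl/fl mice, named myoFoxf1 KO, in which tamoxifen activates a Cre recombinase under the smooth muscle actin promoter, so that the deletion is aimed at smooth muscle cells and myofibroblasts. Both groups thus share the floxed allele. In the protocol of the series bleomycin, a drug that scars the lung, went into the trachea once a week at 1 or 2 U/kg for 2 to 4 weeks, tamoxifen was injected at 40 mg/kg on days 2 to 4, and lungs were taken 1 week after the last dose. The labels do not say which schedule these mice had, how many animals went into a library, or whether the Foxf1fl/fl mice received tamoxifen. Bleomycin is named in the title of the control sample and not in that of the knockout sample, while the design text names it for both.

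Neutrophils are short-lived leukocytes made in the bone marrow. While they mature they pack antimicrobial proteins into granules in sequence, so transcripts of the primary granules peak first, those of the specific granules next, and those of receptors and of calprotectin in the late cells that enter blood and tissue. Several of these proteins are also made elsewhere: Lcn2 and Ltf by secretory epithelium, and S100a8 and S100a9 by monocytes.

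The rows stood for the following loci, given as in the deposited table and named GRCm38 in the submitters' notes. S100a8 lay on chromosome 3 from 90669071 to 90670034 and S100a9 on the same chromosome from 90692632 to 90695721, 22.6 kb apart and on opposite strands. Camp (109847375 to 109849456), Ngp (110419750 to 110423010) and Ltf (111019292 to 111042766) all lay on chromosome 9. Lcn2 was on chromosome 2 (32384633 to 32387797), Csf3r on 4 (126024550 to 126044440), Elane on 10 (79886312 to 79888216), Mpo on 11 (87793581 to 87804413) and Retnlg on 16 (48872608 to 48874498).

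S100a8, S100a9, Ngp and Ltf are the members whose reads differed past the 2-fold rule given below, and their promoter windows are printed for that reason, from 250 bases before to 50 bases after the RefSeq start on GRCm38.p6, 5′ to 3′ on the strand of the gene. The windows are chr3:90668821-90669120 (plus strand), chr3:90695672-90695971 (minus strand), chr9:110419558-110419857 (plus strand) and chr9:111019042-111019341 (plus strand). Capitals mark letters that match a motif of C/EBP factors (TTGCNNAA, either strand), which act in granulocyte and monocyte genes, a motif of PU.1 (GAGGAAG, either strand), the myeloid ETS factor, or a TATA box (TATAAA, strand of the gene).

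S100a8: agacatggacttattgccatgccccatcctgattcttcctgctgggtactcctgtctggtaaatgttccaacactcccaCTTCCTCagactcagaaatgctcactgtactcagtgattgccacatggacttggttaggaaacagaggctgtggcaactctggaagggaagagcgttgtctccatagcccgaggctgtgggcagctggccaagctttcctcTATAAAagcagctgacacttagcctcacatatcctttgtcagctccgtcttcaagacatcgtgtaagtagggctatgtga
S100a9: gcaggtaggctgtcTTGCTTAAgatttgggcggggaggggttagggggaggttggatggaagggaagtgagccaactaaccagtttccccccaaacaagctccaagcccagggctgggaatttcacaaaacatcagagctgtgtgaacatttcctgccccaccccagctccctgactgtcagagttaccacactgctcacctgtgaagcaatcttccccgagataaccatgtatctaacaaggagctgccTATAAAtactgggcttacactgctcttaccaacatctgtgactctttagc
Ngp: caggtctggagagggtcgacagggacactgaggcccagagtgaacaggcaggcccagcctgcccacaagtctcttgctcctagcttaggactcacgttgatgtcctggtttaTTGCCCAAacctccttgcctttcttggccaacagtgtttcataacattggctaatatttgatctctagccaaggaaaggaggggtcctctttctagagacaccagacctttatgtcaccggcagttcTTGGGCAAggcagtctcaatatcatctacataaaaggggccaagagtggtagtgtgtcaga
Ltf: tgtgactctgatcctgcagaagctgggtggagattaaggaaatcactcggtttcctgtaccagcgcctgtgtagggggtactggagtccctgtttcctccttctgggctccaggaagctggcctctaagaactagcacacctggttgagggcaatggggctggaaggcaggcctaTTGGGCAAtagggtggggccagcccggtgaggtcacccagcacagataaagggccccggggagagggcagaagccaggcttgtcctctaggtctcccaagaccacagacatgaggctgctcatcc

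The 4 windows held different matches. That of S100a8 held a PU.1 match 171 bases and a TATA box 30 bases before the start, and that of S100a9 a C/EBP match 236 bases before the start and TATAAA at the start itself. The window of Ngp held 2 C/EBP matches, 138 and 11 bases before the start, and that of Ltf held 1, 75 bases before it. The match of Ltf and the nearer match of Ngp had the same 8 letters, TTGGGCAA. Whether any match bears on the reads was not tested. Among all 10 windows 5 held the C/EBP motif (Lcn2, S100a9, Ngp, Ltf and Retnlg) and 5 the PU.1 motif (Lcn2, S100a8, Csf3r, Elane and Mpo). The letters TATAAA were in 2, that of S100a8 and, at the start itself, that of S100a9. Of the 32851 RefSeq windows of the same length, 10.8% held the C/EBP motif, 13.6% the PU.1 motif and 8.32% TATAAA at any place. These are letter matches and not sites shown to be bound.

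The control library held 16145959 reads in genes and the knockout library 15122824. CPM are counts scaled to a common library size after TMM scaling, and ratios are knockout over control on the log2 scale, with an exact 95% interval that covers counting error only. With 1 library per group there is no replicate check and no p-value. A gene was measured at 1 CPM or more in either library and 20 reads or more in both together, which held for 14455 genes, and called at a ratio of at least 2-fold with an interval that excluded no change. Under this rule 23.6% of measured genes were called, 9.37% higher and 14.2% lower in the knockout library. The targeted gene, Foxf1, had 158 control reads against 49 knockout reads, a log2 ratio of -1.27 (-1.77 to -0.81). Removing trends on GC content and length left Foxf1 at -0.88, short of a call.

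The calprotectin genes were higher in the knockout library, and so was Ngp, while Ltf was lower and the other members were not called. Of the 10 members 9 were measured, and 3 were called higher and 1 lower. The median log2 ratio of the 9 was 0.67, against 0.01 over all measured genes. That median is the ratio of Mpo, on 14 and 17 reads. Mpo and Camp reached 1 CPM, the limit for a measured gene, in the knockout library alone. In RNA from mixed cells, more cells of a type and more RNA per cell cannot be told apart.

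**Figure D1:**
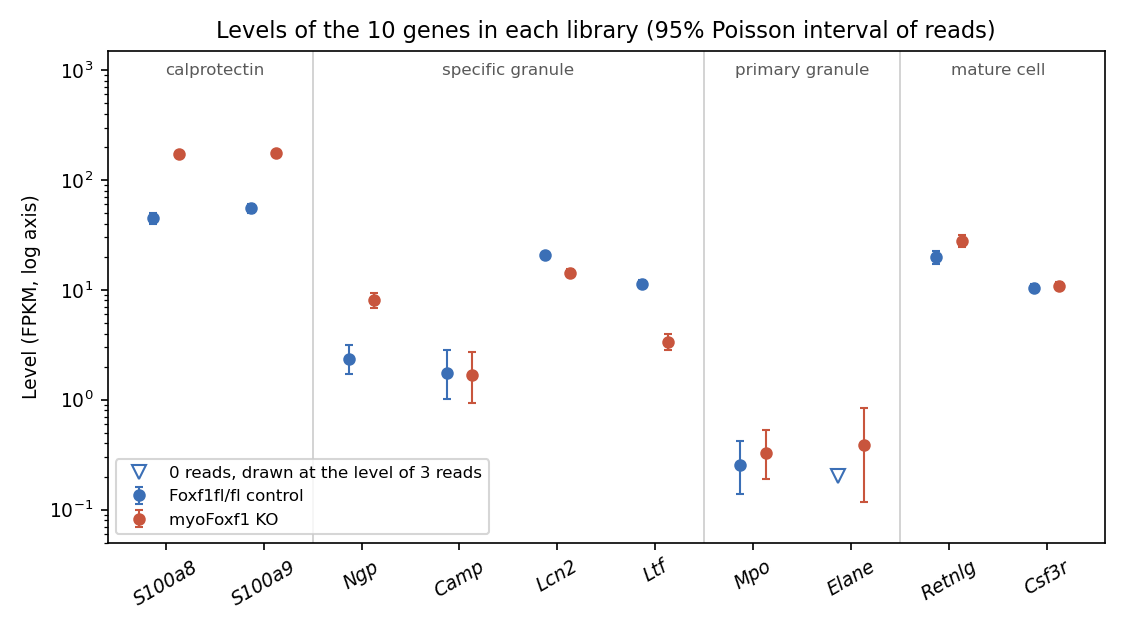
Level of each gene in each library as deposited FPKM (reads scaled by gene length and library total) on a log axis, grouped by role, 1 point a library with the exact 95% Poisson interval of its reads. S100a8 and S100a9 stand highest in both libraries, at 44.6 and 55.1 FPKM in the control and 174 and 175 FPKM in the knockout. The points of Ltf, Lcn2 and Camp are in the opposite order, those of Camp with overlapping intervals. These FPKM are not TMM-scaled.

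S100a8 and S100a9 encode small calcium-binding proteins that pair to form calprotectin, which binds zinc and manganese and signals through TLR4 when released. S100a8 had 283 control reads (15.7 CPM) against 1030 knockout reads (76.0 CPM). Its log2 ratio was 2.27 (2.08 to 2.47), a 4.83-fold difference, rank 125 of the 14455 measured genes. For S100a9 the reads were 464 (25.8 CPM) and 1384 (102 CPM), with a log2 ratio of 1.99 (1.83 to 2.14), or 3.96-fold. The subunits moved together but not in exact proportion: S100a8 had 0.610 reads for each read of S100a9 in the control and 0.744 in the knockout. This shift was 1.22-fold (1.03 to 1.45). In FPKM, which allows for gene length, S100a8 stood at 0.810 of S100a9 in control cells and at 0.991 in knockout cells. Together they rose from 99.7 to 349 FPKM. Of the summed FPKM of the 10 members, S100a8 made up 26.8% in control cells against 41.8% in knockout cells. The share of S100a9 was 33.1% and 42.2%.

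The nearest measured S100 genes on the same stretch of chromosome 3 were not called. S100a4 lay 63.0 kb and S100a6 54.7 kb from S100a8, with log2 ratios of 0.24 and -0.38. Of 14 other S100 genes 10 were measured, and 1 was called higher (S100b, a gene of glia and other cells, at 1.83 on 13 and 36 reads) and 3 lower, S100a16 (-2.44), S100a14 (-1.29) and S100g (-1.09). S100b reached 1 CPM in the knockout library alone. The median of the 10 was -0.09. This median was 0.25 once the trends of the ratios on GC content and length were removed, and S100a14 was then not called. S100a11 was the most abundant S100 gene in both libraries, at 1163 and 906 FPKM, and had a ratio of -0.05.

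The specific granule genes went in different directions. Ngp, which encodes a cathelicidin-related granule protein, had 46 control reads (2.55 CPM) against 148 knockout reads (10.9 CPM). Its log2 ratio was 2.08 (1.61 to 2.61), or 4.23-fold. Camp, the gene of the antimicrobial cathelicidin peptide, had 17 reads (0.944 CPM) and 15 reads (1.11 CPM), and its ratio of 0.22 came with an interval from -0.88 to 1.32. At this depth a 2-fold difference of Camp in the higher direction lies inside the interval. Ltf, the gene of the iron-binding protein lactoferrin, fell from 503 reads (27.9 CPM) to 139 reads (10.3 CPM), a log2 ratio of -1.44 (-1.73 to -1.17), and stood 2.72-fold lower in the knockout. Lcn2, whose lipocalin captures the iron carriers of bacteria, had 770 control reads (42.8 CPM) against 495 knockout reads (36.5 CPM). The Lcn2 ratio of -0.23 (-0.39 to -0.06) was short of a call, and it was 0.24 with the GC and length trends removed.

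The primary granule genes were close to the limit of detection. Mpo, the gene of myeloperoxidase, had 14 control reads (0.777 CPM) against 17 knockout reads (1.25 CPM) and a log2 ratio of 0.67 (-0.42 to 1.82). Elane, the gene of neutrophil elastase, had 0 reads in the control and 5 reads in the knockout, too few to be measured. The exact 95% interval of the Elane ratio began at 1.22-fold and had no upper limit. The noncoding gene Gm11505, which overlaps Mpo in the deposited coordinates, had 0 reads in both libraries. None of 6 other primary granule genes was measured. Prtn3 (proteinase 3) had 9 and 5 reads, Ctsg (cathepsin G) 0 and 5, and Bpi 0 in both.

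The genes of mature neutrophils differed less than calprotectin. Retnlg, a resistin-like secreted protein, had 194 control reads (10.8 CPM) against 257 knockout reads (19.0 CPM). Its log2 ratio of 0.81 (0.54 to 1.09) was short of 2-fold. Csf3r, the receptor for the granulocyte growth factor G-CSF, had 612 reads (33.98 CPM) and 591 reads (43.6 CPM), a ratio of 0.36 (0.19 to 0.52). With libraries scaled by total reads alone the Csf3r ratio was 0.04 and that of Retnlg 0.50. The ligand gene Csf3 had 90 and 44 reads and a ratio of -0.62 (-1.18 to -0.09).

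The order of levels in FPKM changed between the libraries below the calprotectin genes. In the control library S100a9 was followed by S100a8 (44.6 FPKM), Lcn2 (20.7), Retnlg (19.7), Ltf (11.4), Csf3r (10.5), Ngp (2.34), Camp (1.75) and Mpo (0.253). Counting intervals of neighbours overlapped there for S100a9 and S100a8, Lcn2 and Retnlg, Ltf and Csf3r, Ngp and Camp, and Mpo and Elane. In the knockout library the order after S100a8 was Retnlg (27.9 FPKM), Lcn2 (14.2), Csf3r (10.8), Ngp (8.02), Ltf (3.35), Camp (1.66), Elane (0.386) and Mpo (0.328). Ltf thus stood above Ngp in the control and below it in the knockout, with intervals apart in both. In the knockout the intervals of neighbours overlapped for S100a9 and S100a8 and for Elane and Mpo. The order depends on the gene lengths behind the deposited FPKM. For Lcn2 these imply 2302 bases, where its longest GENCODE transcript has 1374. The lengths were 3424 against 2750 for Mpo and 392 against 498 for S100a8.

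**Figure D2:**
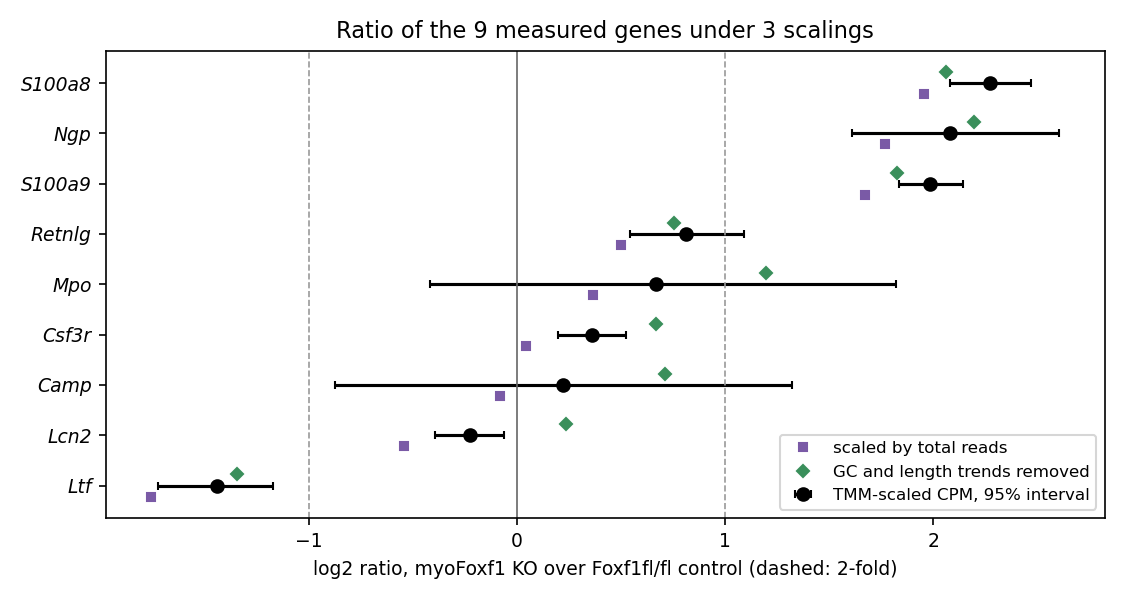
Log2 ratio of knockout over control for the 9 measured genes: black points and bars give the TMM-scaled ratio with its exact 95% interval, squares the ratio by total reads and diamonds the ratio with GC and length trends removed. S100a8, Ngp and S100a9 stay above the dashed line of 2-fold and Ltf below it under all 3, and Mpo passes it with the trends removed (1.20).

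Ratios between members within a library do not depend on how libraries are scaled. They still carry the trends on GC content and length, and were not recomputed with these removed. Of the 36 pairs among the 9 measured members, the ratio differed between the libraries beyond counting error in 27. S100a8 and Ngp kept their proportion within counting error (1.13-fold, 0.774 to 1.63), as did Ngp and S100a9 (1.08-fold, 0.756 to 1.56). Ngp gained 3.62-fold on Camp (1.57 to 8.47), its fellow cathelicidin-family gene. It gained 11.6-fold on Ltf (7.84 to 17.4), since Ngp had 0.0915 reads for each read of Ltf in the control and 1.06 in the knockout. S100a8 gained 2.75-fold on Retnlg (2.17 to 3.47) and 3.77-fold on Csf3r (3.16 to 4.50). All 8 pairs that held Ltf differed in the same direction, with Lcn2 gaining the least on it, 2.33-fold (1.86 to 2.92). The 9 pairs whose interval held no change were these with Ngp, and 7 pairs of Retnlg, Mpo, Csf3r, Camp and Lcn2, each of which included the thinly covered Mpo or Camp.

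**Figure D3:**
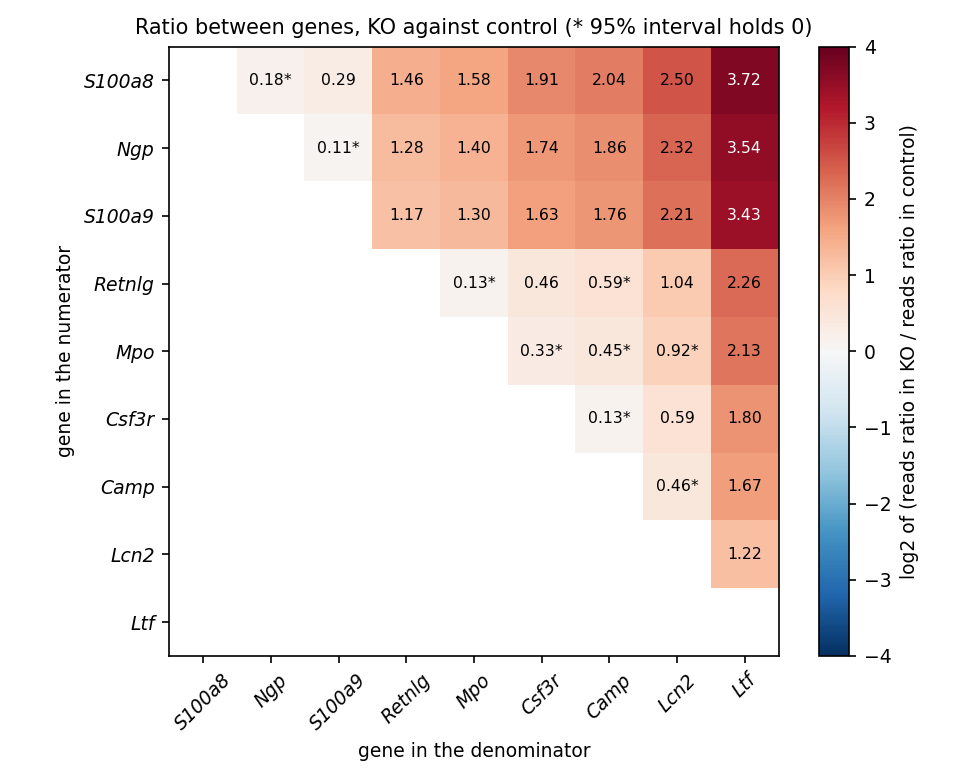
Change in the ratio of reads between members, as log2 of the ratio in the knockout library over that in the control library, with the row gene over the column gene and an asterisk where the 95% interval holds 0. The block of S100a8, Ngp and S100a9 reaches 0.29 at most, and the Ltf column runs from 1.22 to 3.72.

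Ratios also ran with GC content and with length, which bears on members of different composition. The longest transcripts of S100a8 and S100a9 have 44.2% and 45.1% GC, that of Ngp 50.2%, and those of Camp, Lcn2 and Csf3r 54.2%, 54.4% and 54.2%. With the trends removed S100a8 stood at 2.06, Ngp at 2.19, S100a9 at 1.83 and Ltf at -1.35. Mpo, at 1.20, was then also called higher, though on 14 and 17 reads and with 1 CPM reached in the knockout library alone. This made 4 members higher and 1 lower, where 4.93% of genes were called higher and 11.6% lower. Camp stood at 0.71, Csf3r at 0.67 and Retnlg at 0.76, without a call.

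Other genes of the neutrophil programme also went both ways. Of 12 other specific and gelatinase granule genes 11 were measured, with a median log2 ratio of 0.36, and 3 were called higher and 1 lower. Over all measured genes 9.37% were called higher and 14.2% lower. Olfm4, the olfactomedin of specific granules, had 4 and 28 reads (3.05, 1.70 to 5.19). Padi4 had 14 and 28 reads (1.37, 0.44 to 2.45). Its enzyme citrullinates histones in extracellular traps and is not a granule content protein, though the list counts it. Olfm4 (0.222 and 2.07 CPM) and Padi4 (0.777 and 2.07 CPM) reached 1 CPM in the knockout library alone. Mmp8, the neutrophil collagenase, went from 31.6 to 68.7 CPM (1.12) and was 0.69 with the trends removed, short of a call. Hp, the gene of haptoglobin, which epithelium also makes, fell from 220 to 67.1 CPM (-1.72). Cd177 (103 and 81 reads, 0.06) and Mmp9 (164 and 117 reads, -0.08) were not called.

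Of 25 other genes of mature neutrophils 18 were measured, with a median of 0.59. Of these 18, 6 were called higher and 2 lower, against 9.37% and 14.2% of all measured genes. The called genes with the largest ratios were Stfa2l1 (2.57, on 6 and 29 reads), a stefin whose near-identical copies can share reads, and Irg1 (2.28), the itaconate enzyme that macrophages also express. G0s2 (-1.72), an inhibitor of lipolysis, and Pram1 (-1.55, on 36 and 9 reads) were lower. Stfa2l1 reached 1 CPM in the knockout library alone, and Pram1 in the control library alone. Cxcr2, the receptor for the CXC chemokines that draw neutrophils, had 167 and 238 reads and a ratio of 0.92 (0.63 to 1.22), and none of the 9 genes of chemotactic receptors was called, at a median of 0.60. Ly6g, the gene of the Gr-1 surface antigen that defines mouse neutrophils, had 1 and 3 reads. With the trends removed 2 of the 11 genes of the granule list, Olfm4 and Padi4, were higher and 1 lower. Of the 18 mature genes 4 were then higher and 3 lower, where 4.93% of genes were higher and 11.6% lower.

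Ligand genes of these receptors were among those called higher. Over all measured genes 9.37% were called higher and 14.2% lower. Of 14 measured attractants and growth factors 4 were higher, Cxcl3 (1.86), Cxcl2 (1.78), Cxcl1 (1.54) and Il1b (1.21), and Csf2 (-1.05) was lower, with a list median of 0.25. By total reads alone this median was -0.07. Among genes of receptors for the secreted proteins, Ly96 (1.45), Tlr4 (1.41) and Cd36 (1.41) were higher and Ager (-1.18), an abundant gene of type I alveolar cells, was lower, of 11 measured with a median of 0.61. Tlr4 and Ly96 encode the receptor complex that calprotectin engages. With the trends removed Tlr4 at 0.68, Cd36 at 0.68 and Ager at -0.32 were not called. None of 6 measured inhibitors of neutrophil proteases was called, Slpi (-0.17) and Serpinb6a (0.80) being the most read, and their median was 0.03.

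Of 6 measured granulocyte transcription factors 1 was called, and the median was -0.29. With the trends removed this median was 0.31. Cebpd, which drives acute phase genes, fell from 48.2 to 8.11 CPM (-2.57). Cebpb, the most abundant, stood at -0.16, and with the trends removed it was called higher at 1.38. Cebpe, the factor of specific granule genes, had 16 and 5 reads and was not measured. Among genes of the phagocyte oxidase, Cybb, which macrophages share, was higher (1.60), and the other 5 were not called, with a median of -0.14 for all 6. With the trends removed Cybb was at 0.97, short of a call, and the median of the 6 was 0.37.

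**Figure D4:**
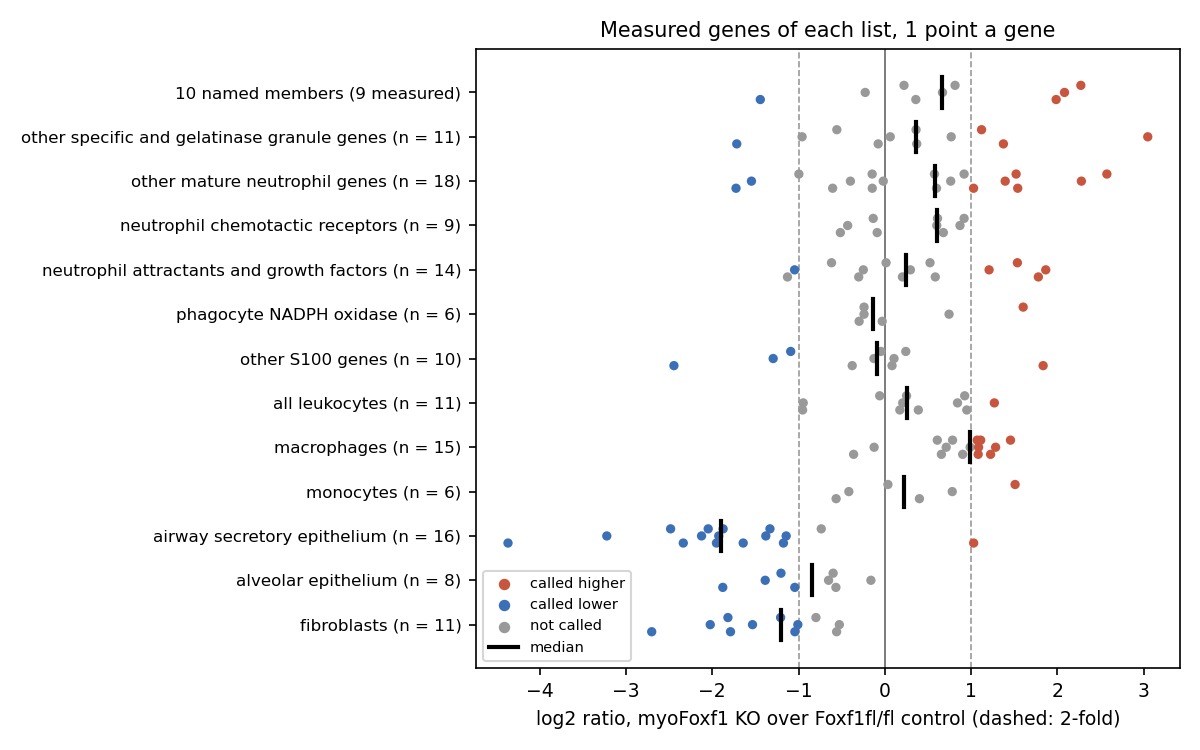
Log2 ratio of knockout over control for each measured gene of the members and of 12 other lists, 1 point a gene, coloured by call, with the list median as a bar and dashed lines at 2-fold. The members and the neutrophil lists spread across 0, the macrophage median lies at 0.99, and the medians of airway secretory epithelium and fibroblasts lie at -1.90 and -1.21.

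Markers of other cell types differed between the same libraries, where 9.37% of all measured genes were called higher and 14.2% lower. All 15 macrophage markers were measured, 7 were higher and none lower, with a median of 0.99, and their summed level was 13922 FPKM in the control and 23029 in the knockout, most of it Lyz2. Markers of all leukocytes had a median of 0.25, 8 of 11 above 0 and 3 below. Ptprc (1.27) alone was called, and Laptm5, the most abundant, stood at 0.21. Monocyte markers had a median of 0.22, 4 of 6 above 0 and 2 below. F13a1 (1.51) alone was called, and Plac8, the most abundant, stood at -0.42. With the trends removed Ptprc stood at 0.43 without a call and F13a1 at 1.15 with one. The monocyte median was then -0.07 and the leukocyte median 0.36. By total reads alone these medians were -0.10 and -0.06. Relative to the leukocyte median of 0.25, S100a8 stood at 2.02, Ngp at 1.83 and S100a9 at 1.73. Retnlg stood at 0.56, Csf3r at 0.11 and Ltf at -1.69. Relative to the macrophage median S100a8 stood at 1.28, Ngp at 1.09 and S100a9 at 0.996, so S100a9 was just short of a call. The part of monocytes and macrophages in the calprotectin ratio was not tested.

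Markers of airway secretory epithelium, which also makes Ltf and Lcn2, were mostly lower. Of 19 markers 16 were measured, 14 were lower and 1 higher, with a median of -1.90. The lowest ratio was that of Krt5, a gene of airway basal rather than secretory cells (-4.37, on 66 and 2 reads). Next came Lypd2 (-3.22), Tff2 (-2.48) and Bpifa1 (-2.34), and Scgb1a1, the most abundant, went from 16783 to 3553 FPKM. The list also counts Epcam (-0.74) and Cdh1 (-1.17), genes of epithelium in general. Lyz1, the exception at 1.03 (0.96 with the trends removed, short of a call), shares sequence with the macrophage gene Lyz2, and Lpo had 0 reads in both libraries. The summed level of the list was 20020 FPKM in the control and 6736 in the knockout. Alveolar epithelial markers had a median of -0.85, with 4 of 8 lower, led by Aqp5 (-1.88). With the trends removed none of the 8 was called and Aqp5 stood at -0.62. The part of epithelium in the Ltf and Lcn2 ratios was not tested. Fibroblast markers, those of the cell type the samples are named for, were present in both libraries at a median of -1.21, with 8 of 11 lower, Inmt (-2.70) and Gpx3 (-2.02) first among them.

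Within 100 kb of Ltf, 3 genes were measured, and Ccrl2, 12.1 kb away, was higher at 1.18 while Ltf was lower. Ccrl2 encodes a chemerin-binding receptor of myeloid cells. Of the 5 measured genes within that distance of Ngp none was called higher and Kif9 was lower (-1.07). No measured gene within 100 kb of Camp or of Lcn2 was called. Of the 2 measured beside Retnlg, the related Retnla, 28.1 kb away, had 1291 and 1143 reads and a ratio of 0.23, and Dzip3, 49.7 kb away, was called higher (1.12, on 76 and 125 reads) but stood at 0.18 with the trends removed. Among the measured neighbours of Elane 3 of 9 were called lower, of Mpo 4 of 6 and of Csf3r 1 of 4, and none was called higher. Over all measured genes 14.2% were called lower, and 11.6% with the trends removed. With that correction Misp (-0.99) and Tmem259 (-0.19) beside Elane fell short of 2-fold, as did Rnf43 (-0.61), Mks1 (-0.66) and A430104N18Rik (0.05) beside Mpo. BC005764 (-1.10) beside Elane, Mir142 (-1.34, on 29 and 6 reads) beside Mpo and Oscp1 (-1.64) beside Csf3r still passed it.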

How the data were processed

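Per the labels' protocols the RNA-seq kit was Nextera XT, whose reads carry no strand. Each library has, as deposited by the authors, an estimated count and an FPKM value for every gene, and the submitters' processing notes name mm10, GRCm38, Cufflinks and TopHat, giving neither version nor role. The counts were rounded. The deposited FPKM are the same reads divided by gene length and library total, and are used for levels between genes.

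TMM scaling used edgeR 4.0.16 in R 4.3.3, with factors of 1.12 for the control and 0.896 for the knockout. Ratios used a prior count of 0.5. Intervals are exact conditional binomial 95% intervals, those of pairs exact odds ratio intervals, from scipy 1.17.1 under Python 3.11.15. PCR reads may be copies of 1 molecule, and intervals cover counting error only. For each gene the longest GENCODE transcript gave GC content and length, and trends on both were removed by lowess (span 0.3, statsmodels 0.14.6). The calculation was checked on simulated data. Promoter windows come from RefSeq, GRCm38.p6, and matched all 10 members by symbol.

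Members and the 22 other lists were chosen with earlier results of these data known. Of 242 symbols in the lists, 1 (Ahsp) was not matched. Lists share some genes. Genes were named as members, as up to 4 called genes of a list by size of ratio, or, where none was called, the 2 with most reads, and as the most abundant cell type marker. Further genes were named after their values were seen: S100a4, S100a6, S100a11, Cd177, Mmp9, Cxcr2, Ly6g, Csf3, Csf2, Cebpe, Cebpb, Bpi, Lyz1, Lpo, Epcam, Cdh1, Fcer1a, Epx, Kit, Mcpt4, Tpsb2, Dzip3, Gm11505, Ccrl2, Kif9, Retnla, Misp, Tmem259, BC005764, Rnf43, Mks1, A430104N18Rik, Mir142 and Oscp1.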

Additional observations from a re-analysis of the deposited data

How the results depend on the processing

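The ratios of the members, the counts of calls and the median were recomputed under 14 alternatives, of which the FPKM settings measured 8 members and a minimum of 10 CPM measured 7. S100a8 and Ngp were called higher under each of them. Relative to the macrophage median Lcn2 was called lower at -1.22 and S100a9 was not called at 0.996, which gave 2 members lower, where 49.0% of genes were lower. Relative to the fibroblast median 7 members were higher and 0 lower, where 59.7% of genes were higher: Retnlg (2.02), Mpo (1.88), Csf3r (1.57) and Camp (1.43) gained a call and Ltf lost it at -0.24. Both shifts add the same amount to every ratio. Retnlg (0.81) passed a 1.5-fold rule, which gave 4 members higher, where 22.1% of genes were higher. S100a9 (1.99) and Ltf (-1.44) did not pass a 4-fold rule, which left 2 members higher and 0 lower. Under that rule 1.2% of genes were higher and 2.75% lower. Without a filter Elane was called, which gave 4 members higher, where 7.26% of genes were higher. Mpo was called with GC and length trends removed (1.20). Other values kept their side of the threshold, but the direction of members without a call depended on scaling: Csf3r ran from -0.63 to 1.57 and Lcn2 from -1.22 to 0.98. The median of the members ran from -0.32 to 1.88. Scaling by total reads lowered the ratios by 0.31 at the median. Camp and Mpo, listed on 14 to 17 reads, and Elane are limited by depth. No paired analysis was possible because each group has 1 library, and for the same reason no replicate could be left out.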

Other observations

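Transcripts of other granulocytes were read in the same libraries. The mast cell carboxypeptidase Cpa3 had 23 control reads against 177 knockout reads (log2 ratio 3.32, 2.72 to 4.05), and the chymase Cma1 had 26 and 70 reads (1.82, 1.17 to 2.55). Both were called higher, among 4 measured genes of eosinophils, basophils and mast cells. The mast cell receptor gene Kit, which other cells also express, went the other way without a call (404 and 220 reads, -0.47), as did the chymase gene Mcpt4 on too few reads to be measured (16 and 8), and the tryptase gene Tpsb2 had 12 reads in each library. Fcer1a, of the high-affinity IgE receptor, had 1 and 14 reads and was not measured. The eosinophil granule gene Epx had 2 reads in each library. Among markers of other cells, 1 of 10 genes of B and T cells was higher and 3 were lower (median -0.36), 3 of 8 of endothelium were lower (-0.93), and all 4 of mesothelium (-1.71) and 4 of 5 of red cells (-1.31) were lower. With GC and length trends removed 1 of the 5 red cell genes was lower. None of 4 platelet genes was called (-0.08). With the trends removed the platelet median was 0.32, and 1 of the 4 was lower.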
